A study of Homo sapiens with 6 samples.

Results

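Chromosome 11 carried 401 of the 32760 islands in the deposited list of regions where NFATc2 ChIP of THP-1 cells gave more reads than Input DNA. An island is a stretch of neighbouring 200 bp windows with many IP reads, which the caller epic2 joins and then compares with the input. Its fold is given as a log2 value, IP reads against input reads scaled to the same depth. The members were chosen by chromosome alone and then split at KMT2A, placed at about 118.31 to 118.40 Mb of chromosome 11 in hg19. In this way 164 islands lay before the gene, 0 over it and 237 after it.

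THP-1 is a human AML cell line with the fusion MLL-AF9, and the cells were untreated. The experiment had 3 NFATc2 IP libraries (11000000 cells per IP, chromatin fixed in 1% formaldehyde for 10 min) and 3 Input DNA libraries of chromatin that no antibody had precipitated. Islands were called by the authors after all libraries had been pooled, so that each has 1 value and no spread between replicates. All samples come from a single cell line in 1 condition, and nothing here separates the binding of NFATc2 from other features of this line.

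NFATc2 is a transcription factor of the NFAT family. Calcium entering the cell activates the phosphatase calcineurin, which removes phosphates from NFAT proteins, and these then move to the nucleus and bind DNA. KMT2A (MLL) is a histone methyltransferase that keeps HOX genes active in blood progenitors. In the translocation that makes MLL-AF9, chromosomes 9 and 11 break within MLLT3 (AF9) and KMT2A, and in its balanced form the part of chromosome 11 beyond the break is carried by the derivative chromosome 9. The gene is therefore a natural point at which to look at either side of chromosome 11 in this line.

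KMT2A is read in the direction of rising coordinates, so the islands before it lie upstream of its start. Its promoter is shown because no island of the list lay over it. The 250 bases before the gene start (RefSeq, GRCh38.p14, chr11:118436242-118436491, plus strand) are given here with each CG in capitals.

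KMT2A promoter: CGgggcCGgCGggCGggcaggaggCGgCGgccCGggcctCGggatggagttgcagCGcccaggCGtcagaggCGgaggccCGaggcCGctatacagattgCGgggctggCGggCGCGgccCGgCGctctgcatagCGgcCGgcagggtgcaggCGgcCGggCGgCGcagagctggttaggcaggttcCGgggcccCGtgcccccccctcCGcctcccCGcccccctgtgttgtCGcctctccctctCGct

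The window held 31 CG and was 78.4% G and C. Over 35116 promoter windows of the same length the median was 11 CG, and 10.9% held at least as many as KMT2A. The NFAT core GGAAA, searched on both strands, did not occur in it, and 55.6% of all windows held it. The windows were not matched to KMT2A for base composition. The E-box CACGTG, the sequence to which MYC binds, did not occur either and was found in 6.34% of all windows. These letters say nothing of binding at the gene, and no island was read against GRCh38 positions.

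The first question was whether islands were spread evenly along the chromosome. They were not, and the change lay near the distal end. The part after KMT2A made up 12.4% of the length of chromosome 11 and held 59.1% of its islands. There were 14.2 islands per Mb after the gene (95% counting interval 12.5 to 16.1) and 1.39 per Mb before it (1.18 to 1.62), a ratio of 10.2 (interval 8.36 to 12.6, exact binomial test by length, two-sided, p = 7.6e-109). Neighbouring islands are not independent, so this p and the intervals are too narrow. With islands less than 100 kb apart counted once, 39 groups after and 106 before the gene gave a ratio of 2.61 (exact binomial test, p = 2.9e-06). At a false discovery rate (FDR) below 0.001 the ratio was 6.44, from 118 and 130 islands.

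**Figure D1:**
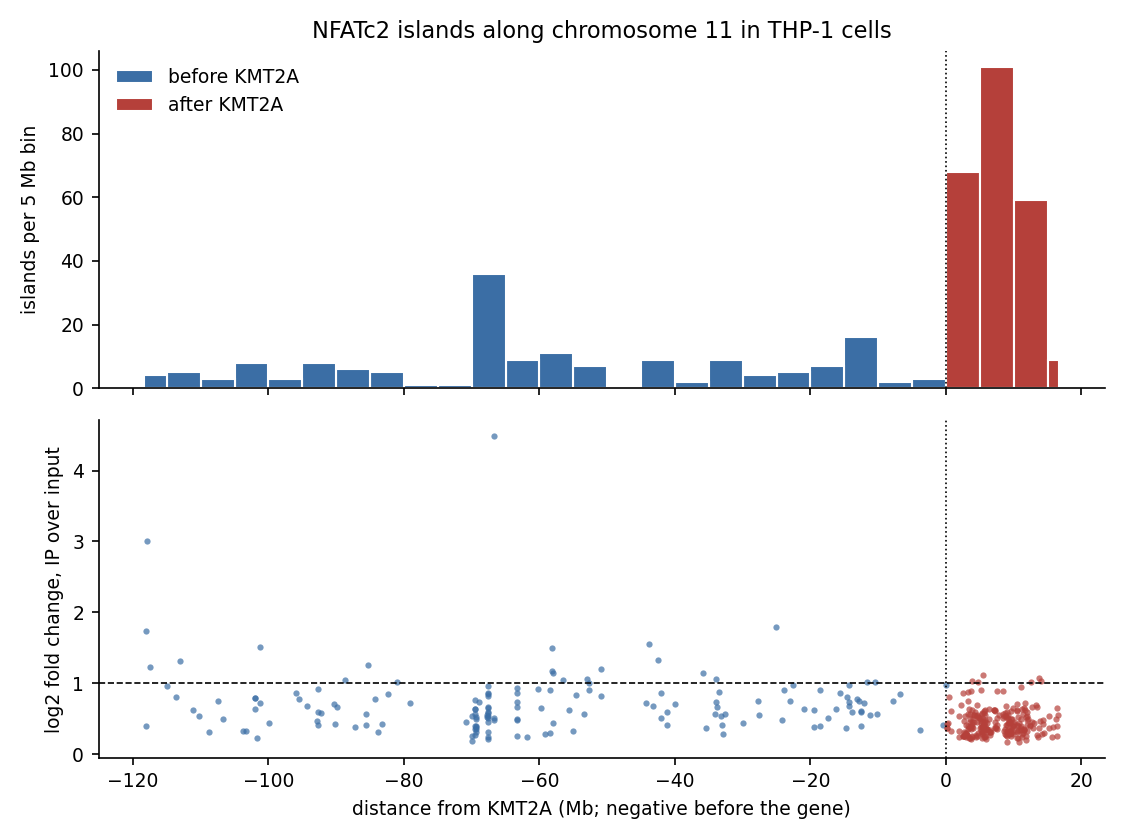
Number of islands per 5 Mb bin (top) and the log2 fold change of each island, NFATc2 IP against input (bottom), by distance from KMT2A in Mb, with blue for the 164 islands before the gene and red for the 237 after it. The dotted line is KMT2A, the dashed line a log2 fold change of 1, and the outermost bin on either side is shorter than 5 Mb. Bins before the gene reach 36 islands at most, while the first 3 bins after it hold 68, 101 and 59.

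Before the gene, the 23 full bins of 5 Mb counted backwards from KMT2A held a median of 5 islands. One bin, 45 to 50 Mb before the gene, held 0, and the fullest, 65 to 70 Mb before it, held 36. In 20 of these 23 bins (87.0%) there were fewer than 10 islands, against 25.3% of the 538 bins on the other autosomes, whose median was 41 with quartiles of 9 and 88. The bins after the gene, with 68, 101 and 59 islands, therefore lay above this median. It is the long proximal part that was sparse.

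Stretches without an island show the same densities in another form. The longest ran from 39.2 to 47.5 Mb (8.32 Mb), followed by 67.5 to 74.1 Mb (6.63 Mb), 78.3 to 82.4 Mb (4.13 Mb), 18.4 to 22.4 Mb (4.01 Mb) and 114.4 to 117.8 Mb (3.41 Mb). All 5 lay before KMT2A, but the part after it made up only 12.4% of the length. Of the stretches between neighbouring islands, 41 of 163 before the gene exceeded 1 Mb, and 1 of 236 after it did. The median distance between neighbours was 349 kb before and 27.9 kb after the gene.

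Close to KMT2A the change was not a single step at the gene. The gene lay in a stretch of 264.6 kb without an island. On its near side the closest island, from 118272201 to 118273600, ended about 0.036 Mb before the gene, and its log2 fold, from 75 IP and 68 input reads, was 0.97 (95% counting interval 0.48 to 1.47). The next ones before it lay at 117841001 to 117846400 (0.42, interval 0.07 to 0.76) and at 114429201 to 114434600 (0.35). Behind the gene the first island began at 118538201, about 0.138 Mb beyond its end, and its 173 IP and 238 input reads gave a log2 fold change of 0.37 (0.08 to 0.66). It was followed by islands at 118592601 to 118598200 (0.38, interval 0.06 to 0.68) and 118611001 to 118618000 (0.42, interval 0.14 to 0.71). The island next to the gene on its near side was the narrowest and had the highest fold of these 6, but its interval overlapped those of the others.

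After the gene, 7 islands lay between its end and 119126800, and then came 1.13 Mb without an island, up to 120254601. From there to the end of the chromosome 230 islands followed, 15.5 per Mb. The dense part thus began about 1.85 Mb beyond the end of KMT2A, a boundary taken from the islands themselves. Up to there the 7 islands made 3.77 per Mb (95% counting interval 1.52 to 7.78). This was above the 1.39 per Mb before the gene (1.18 to 1.62), with overlapping intervals. In the 2 Mb on either side of the gene there were 2 islands before and 10 after it (ratio 5.0, exact binomial test, p = 0.039, a comparison chosen after the data were seen). Per Mb after the gene the count ran from 3 in the second Mb to 34 in the sixth, and it fell to between 4 and 7 in the last 4 bins of up to 1 Mb.

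**Figure D2:**
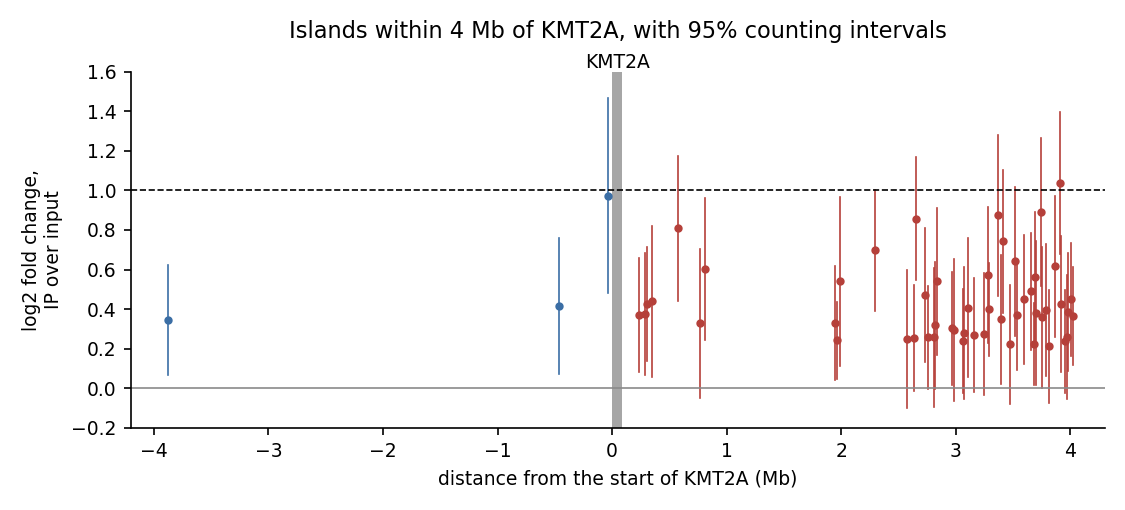
Log2 fold change (y axis, IP against input) of islands within 4 Mb of KMT2A by distance from the start of the gene (x axis, Mb). Points are islands, vertical lines their 95% counting intervals, the grey band the gene and the dashed line a log2 fold change of 1. Only 3 islands lie before the gene, and after the first 7 islands behind it a gap of 1.13 Mb comes before the dense part.

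Islands after KMT2A stood in long rows. With islands less than 100 kb apart taken as a group, 16 groups of 5 or more islands held 195 of the 237 islands (82.3%), and the largest, with 39 islands, spanned 1227 kb from 123.3 to 124.5 Mb. Rows were not particular to this side. Its 237 islands made 39 groups with a median distance between neighbours of 27.9 kb. The 32282 islands of the other autosomes made 4675 groups with a median distance of 22.2 kb. Before the gene 86 of 106 groups were a single island, and 3 groups of 5 or more held 36 islands, the largest being 16 islands between 50.56 and 50.77 Mb. Outside 45 to 60 Mb no group before the gene had more than 4 islands.

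The second question was how chromosome 11 compares with the other autosomes. By length 1536 islands were predicted and 401 found, a ratio of 0.26 (interval 0.24 to 0.29, exact binomial test with Benjamini-Hochberg adjustment over 22 autosomes, adjusted p = 4.9e-269, with the same caveat on independence). Counting islands less than 100 kb apart once gave 0.64 (adjusted p = 9.6e-09, exact binomial test). Of the 21 other autosomes 17 had more islands per Mb and 4 had fewer. Taken apart, the sides of the chromosome differed in their place. The side before KMT2A, with 1.39 islands per Mb, was below 19 of the 21 other autosomes, and the side after it, with 14.2, was above 17 of them. The other autosomes together held 11.8 islands per Mb, which is 8.50 times the density before KMT2A. The side after KMT2A exceeded them 1.21 times (interval 1.06 to 1.37, exact binomial test, p = 0.0053), but with islands less than 100 kb apart counted once this was not past the threshold (ratio 1.37, exact binomial test, p = 0.059).

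Windows as long as the side after KMT2A (16.7 Mb) were laid along each autosome from its distal end. The 7 such windows before the gene held between 16 and 41 islands. On the other autosomes 152 windows had a median of 152 islands with quartiles of 40 and 289, and 53 of them held more than the 237 islands after KMT2A. At most 41 islands were found in 39 of the 152 windows, so sparse windows as such also occurred elsewhere. Between the window after KMT2A and the one before it the count differed 10.3-fold (237 and 23), and 4 of 131 pairs of neighbouring windows on the other autosomes differed by as much. On none of the 21 other autosomes did the distal window exceed its neighbour by this factor. Only the distal end was compared in that way. The 4 pairs included the last window laid on chromosome 9, at its opposite end, with 666 islands against 59 in its neighbour. These figures describe the windows and are not a test.

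The islands on either side also differed in fold. The median log2 fold change was 0.64 before KMT2A (quartiles 0.45 and 0.85) and 0.41 after it (0.32 and 0.54), against 0.39 (0.29 and 0.53) on the other autosomes. The intervals of these medians over islands were 0.57 to 0.71 before and 0.38 to 0.44 after the gene, and they too take islands as independent. No replicate spread is available to set beside the difference. The median before KMT2A was above that of each of the 21 other autosomes, which ran from 0.33 to 0.60, and the median after it lay within their range. Whole autosomes are mostly denser, however, and sparse windows of 16.7 Mb elsewhere reached like folds. Of 38 windows on the other autosomes with 1 to 41 islands, 9 had a median at or above that before KMT2A. Their medians ran from 0.37 to 0.83 with 0.55 in the middle, and those of the 7 windows before KMT2A from 0.53 to 0.82 with 0.68 in the middle. Of the islands before the gene 18.3% had a log2 fold change below 0.4, and after it 47.7% did. Between 45 and 60 Mb the median was 0.52 over 50 islands, and before the gene without them, an alternative added after the data were seen, it was 0.71 over 114 islands.

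Peaks above a log2 fold change of 1, the threshold the study used, were spread differently from the weaker islands. Over the whole list 1.58% of islands were above it, and on the other autosomes 1.47%. On chromosome 11 there were 29 of 401 (7.23%, exact 95% interval 4.90 to 10.2), a higher share than on the other autosomes together (Fisher's exact test, two-sided, p = 8.4e-12). Taken singly, 3 of the 21 other autosomes had a higher share than chromosome 11. The sparse autosomes 8, 16, 18, 19 and 22 had 3.55%, 6.16%, 8.82%, 7.96% and 11.1%. Before KMT2A the peaks were 23 of 164 (14.0%) and after it 6 of 237 (2.53%), and these 2 shares differed (Fisher's exact test, two-sided, p = 1.7e-05). Both Fisher tests take islands as independent, though 195 of those after the gene stood in 16 groups, so their p are too small. Between the sides the number of weaker islands per Mb differed more than that of peaks. Per Mb there were 0.194 peaks before the gene (interval 0.123 to 0.292), 0.36 after it (0.132 to 0.783) and 0.174 on the other autosomes, with overlapping intervals. Islands at or below the threshold numbered 1.19 per Mb before the gene, 13.8 after it and 11.6 on the other autosomes. Their median log2 fold change was 0.59 before and 0.40 after the gene. With only 6 peaks after the gene, an equal number of peaks per Mb is not shown. By peaks alone chromosome 11 was not below its length, with 1.22 times the number predicted (adjusted p = 0.45, exact binomial test), and the excess after KMT2A was 1.85-fold and not past the threshold (exact binomial test, p = 0.16).

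The strongest peaks lay before the gene. The highest log2 fold changes there were 4.49 (interval 3.46 to 5.74) at 51588201 to 51589000, with 101 IP and 8 input reads, and 3.00 (1.99 to 4.16) at 314001 to 314400, with 45 IP and 10 input reads. The first of these held 10 input reads per kb, the lowest on the chromosome, between islands that held 662 and 1416. IP reads fell there too, to 126 per kb between 530 and 1109 in the same 2 islands, but by less than the input. The cause of this drop was not tested. A peak of 200 bp at 93268601 to 93268800 had 1.79 (0.96 to 2.67) from 37 IP and 19 input reads, the fewest IP reads of any island on the chromosome. Close to the second of these, another at 308001 to 309200 reached 1.74 (1.16 to 2.34) from 73 IP and 39 input reads. The fifth, at 74456601 to 74457400, had 1.55 (1.29 to 1.81) with 320 IP and 195 input reads, and thus the densest input of these 5, 244 reads per kb.

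After KMT2A the 6 peaks were close to the threshold and alike. Their log2 fold changes ran from 1.01 to 1.12, their widths from 2600 to 4600 bp and their IP reads from 94 to 144. The highest was 1.12 (interval 0.73 to 1.51) at 123861201 to 123864200, from 122 IP and 100 input reads. It was followed by 1.07 at 132162401 to 132165800, 1.04 at 122217001 to 122221600, 1.03 at 132469601 to 132473600 and 1.02 at 130992401 to 130995800. Every one of the 6 had a lower counting bound below 1, and over the chromosome 6 of the 29 peaks had a bound above 1, all before the gene. The part after the gene made up only 12.4% of the length, so these few peaks do not set the sides apart. Just inside the threshold the lowest value was 1.00 (1.002 before rounding) and just outside it the highest was 0.98.

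**Figure D3:**
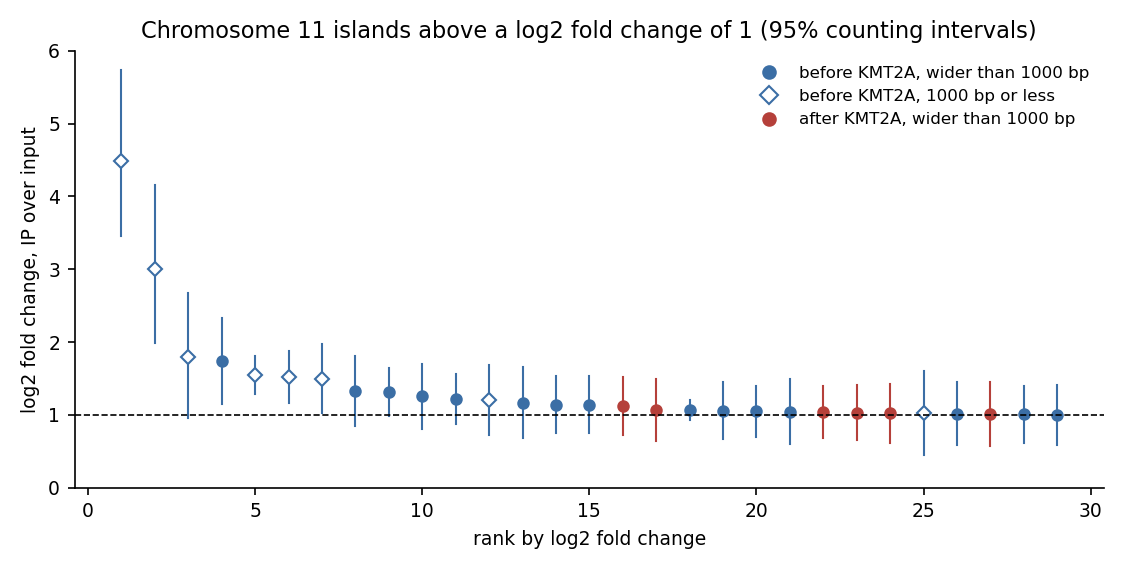
Log2 fold change (y axis) of the 29 islands of chromosome 11 above 1, by rank (x axis), with 95% counting intervals as vertical lines. Blue marks peaks before and red peaks after KMT2A, open diamonds those of 1000 bp or less. The 6 red points lie between 1.01 and 1.12, and 8 open diamonds lie before the gene.

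The sides also differed in their share of narrow islands. All 14 islands of 1000 bp or less lay before KMT2A (8.54% of 164, exact interval 4.75 to 13.9), and 0 of 237 lay after it (upper bound 1.54%; Fisher's exact test, two-sided, p = 2.6e-06, chosen after the data were seen and with islands again taken as independent). By length the difference was not past the threshold. The 0.118 narrow islands per Mb before the gene predict 1.97 after it, and 0 were found (exact binomial test, two-sided, p = 0.24). Of these 14 narrow islands 8 (57.1%) were above a log2 fold change of 1, and on the other autosomes 76 of 125 (60.8%) were. They held a median of 164 IP and 119 input reads per kb, whereas the 150 wider islands before the gene held 29.8 and 35.0. On the other autosomes 125 of 32282 islands were as narrow (0.387%, or 0.0456 per Mb), with 109 input reads per kb. On the sparse autosomes 16, 18, 19 and 22 the share was 5.48%, 7.35%, 6.19% and 14.8%. Chromosome 8, with 2.91 islands per Mb against 2.97 on chromosome 11, had a share of only 0.473%. The median width was 4200 bp before and 4600 bp after the gene, and 4900 bp in the 20 Mb before it, so that the order depended on the stretch taken.

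The 5 widest islands were on both sides. The widest, 19000 bp from 51567401 to 51586400, held 10073 IP and 12584 input reads, or 662 input reads per kb, and its log2 fold change was 0.51 (interval 0.47 to 0.55). Together with the strongest peak and the island that follows it, 3 islands between 51567401 and 51593200 held 17.7% of all IP reads and 17.4% of all input reads in islands of chromosome 11, and 3.33 Mb without an island, which hold the centromere, followed. The next widest were 18800 bp at 50742201 to 50761000 (0.31), 15800 bp at 124116801 to 124132600 (0.25), 15600 bp at 128999601 to 129015200 (0.22) and 12800 bp at 55011601 to 55024400 (0.26). Reads in islands between 45 and 60 Mb were dense in the input too, with a median of 55.1 input reads per kb over 50 islands.

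Input reads bear on what a count of islands can mean, because they measure unprecipitated DNA. In islands after KMT2A the median was 41.0 input reads per kb (quartiles 36.9 and 43.8), near the 42.1 of the other autosomes. Before the gene it was 35.9 (29.6 and 54.8). In the 20 Mb before the gene, over 28 islands, it was 31.2 (29.2 and 35.2), and without 45 to 60 Mb it was 32.5 over 114 islands. The side after KMT2A thus exceeded the 20 Mb before it 1.31-fold. For IP reads per kb the median was 30.6 after the gene. Before it the median was 30.5, with 46.3 between 45 and 60 Mb, 28.8 without that stretch and 28.4 in the 20 Mb before the gene.

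Because an island of higher fold has fewer input reads for the same IP reads, the sides were also compared within classes of fold, a comparison chosen after the data were seen. At a log2 fold change of 0.2 to 0.4, islands before KMT2A outside 45 to 60 Mb held a median of 36.6 input reads per kb (14 islands) and those after it 42.8 (110 islands). At 0.4 to 0.6 the medians were 34.6 (30 islands) and 38.9 (83 islands), at 0.6 to 0.8 they were 29.6 (30) and 36.7 (27), and at 0.8 to 1.0 they were 29.1 (18) and 36.1 (8). The side after the gene was the higher in each class, by 1.13 to 1.24 times. With 45 to 60 Mb kept in, the ratios ran from 0.96 to 1.18. At equal fold IP and input reads go together, so IP reads per kb were higher after the gene in the same classes. A difference in DNA copies between the sides, whichever side departs, and a difference in the IP signal alone cannot be told apart. The list gives no reads outside islands. Copy number, mappability and base composition were not tested.

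**Figure D4:**
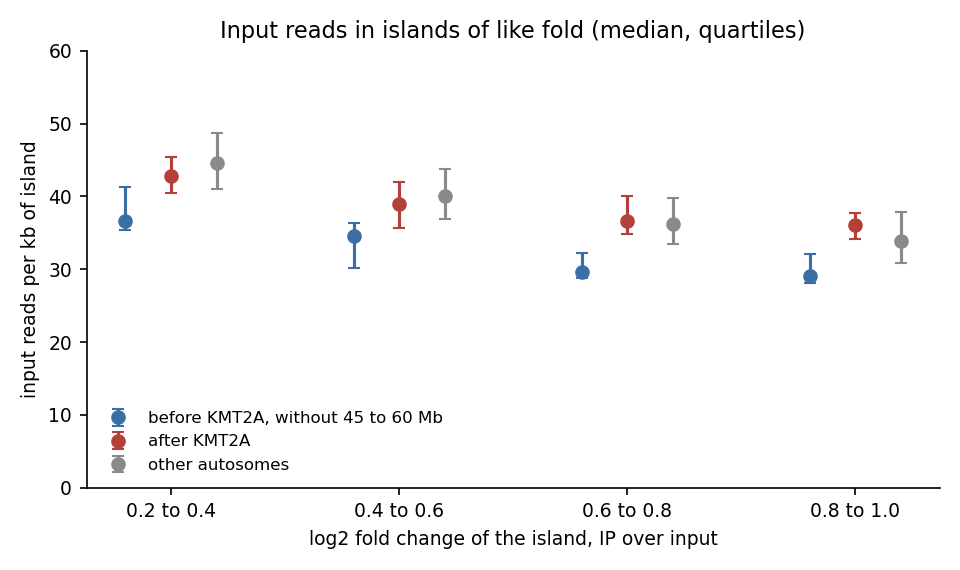
Input reads per kb of island (y axis; points are medians, bars the quartiles) in classes of log2 fold change (x axis) for islands before KMT2A without 45 to 60 Mb (blue), after KMT2A (red) and on the other autosomes (grey). Blue points lie at 29.1 to 36.6 and below the red points, which lie at 36.1 to 42.8, in each class.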

How the data were processed

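NFATc2 ChIP-seq and Input DNA libraries of THP-1 cells (3 each) were analysed from 1 list of islands with no header. The tools in the submitters' processing notes are ChIPseeker 1.18.0, SICER 0.0.52, SAMtools 1.3.1, BWA 0.7.17.1 and Trimmomatic 0.36.5, with hg19 as the build, and the paper names epic2. The authors pooled all libraries, called islands on IP reads, compared them with input under 1 scaling factor for the genome and kept FDR below 0.05. An island needs enough IP reads to be joined at all, so a region with few reads can lack islands whatever its fold. Blacklisted regions are still included. The values deposited are a score (100 times the log2 fold change, cut to a whole number), the log2 fold change (IP reads against scaled input reads), and −log10 p and −log10 FDR. Positions other than start and end are not given. Starts are printed as a browser counts them, from 1.

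The IP and input reads behind an island follow from its fold and its Poisson p. This gave whole input reads, to within 0.02, in 32750 islands and in all 401 of chromosome 11, with 0.562 expected IP reads per input read, so the pooled input was 1.78 times as deep. On 2451 simulated islands 100% of read numbers were recovered. Chromosome 11 islands held between 37 and 10073 IP reads. Intervals are exact (Clopper-Pearson for shares and folds, Poisson for counts, order statistics for medians) at 95% and cover counting error only. Counts were compared by length with exact binomial tests and shares with Fisher's exact test. Chromosome lengths are totals of GRCh38. The place of KMT2A is approximate. No other gene was set against the islands and no island sequence is shown, because the genome and annotation used here are GRCh38. Named islands were the 5 of highest fold on each side of KMT2A, the 5 widest, the 3 nearest the gene on each side and the 5 longest stretches without an island. The members and comparisons were chosen with earlier results of these data known. Software: scipy 1.17.1 and numpy 2.4.6 for tests, matplotlib 3.10.9 for figures and pandas 2.3.3, under Python 3.11.15.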

Additional observations from a re-analysis of the deposited data

How the results depend on the processing

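With peaks above a log2 fold change of 1 only, chromosome 11 turned to 1.22 times its predicted number (adjusted p = 0.45), and the ratios of the side after KMT2A to the side before it (1.85, p = 0.16) and to the other autosomes (2.07, p = 0.075) were no longer past the exact binomial test; only 29 and 6 peaks were left for these. Counting islands less than 100 kb apart once gave 1.37 (p = 0.059, exact binomial test) for the side after KMT2A against the other autosomes. By bases covered, chromosome 11 stood at 0.22. Without the islands between 45 and 60 Mb, an alternative added after the data were seen, the difference in median log2 fold change (after minus before) went from -0.23 to -0.30 and that in input reads per kb from 5.12 to 8.46. Against the 20 Mb before KMT2A the latter was 9.82, and the difference in median width turned from 400 to -300 bp. The cause of these shifts was not tested. The other 34 of 43 alternative values kept the direction and side of the threshold of the result they belong to. A fold threshold of 1.5 left 0 peaks after KMT2A and gave no ratio. No paired analysis was possible because islands have 1 value for all libraries pooled, which also means that leaving out single replicates could not be tried. Depth limits single islands: the median 95% counting interval was 0.67 wide on the log2 scale, and the lower bound was above 0 in 341 of the 401 islands.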
